A study of Drosophila melanogaster with 2 samples.

Results

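The mitochondrial ribosomal protein genes of Drosophila melanogaster were examined for E2f1 at their promoters. They were taken as the protein-coding genes of the Ensembl annotation BDGP6.54 whose symbol starts with mRpL or mRpS and a number. The rule found 73 of the 13945 coding genes on the 6 chromosome arms, 47 named for the large subunit and 26 for the small subunit. The series profiled whole embryos aged 0 to 24 hours of a strain labelled E2f1-GFP, with a transgene for a fusion of E2f1 and the fluorescent tag eGFP. Per the sample descriptions, fragments of 200 to 800 bp from sonicated chromatin were pulled down through the tag by an anti-GFP antibody for sequencing (ChIP-seq), although the antibody field reads E2f1. There was 1 group with 2 biological replicates, so no condition, stage or tissue could be compared, and the signal is summed over all cell types of the embryo. The labels do not say how many animals were pooled or whether the fusion adds to or replaces normal E2f1, and the data of the named control experiment are not used here. The files hold regions in the dm6 build and no reads, so depth is unknown.

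E2f1 is the activating member of the fly E2F family, which binds DNA with its partner Dp and is best known for switching on genes of DNA replication and the cell cycle. Mitochondrial ribosomes translate the few proteins encoded in mitochondrial DNA, all of them parts of the oxidative phosphorylation complexes. Their RNAs come from the mitochondrial genome, but every one of their proteins is encoded in the nucleus, made in the cytosol and imported. Many of these proteins descend from bacterial ribosomal proteins, and others were gained in the mitochondrial lineage.

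Short stretches of DNA at 7 summits, the points of highest signal, are shown because they carry the base composition and the motif result described further on. Each is 101 bases centred on a summit of the reproducible set, read from the RefSeq genome of the same build (dm6) and given 5′ to 3′ on the strand of the mitochondrial ribosomal protein gene. The first 5 belong to 5 of the 7 highest regions, and none of the motifs searched lies in them. They lie at chr3R:15229481-15229581 (plus strand) for mRpS10, chr2L:13835407-13835507 (minus) for mRpS23, chr2L:4850522-4850622 (minus) for mRpS2, chr3L:13018094-13018194 (minus) for mRpL20 and chr2L:4945424-4945524 (minus) for mRpL24.
mRpS10: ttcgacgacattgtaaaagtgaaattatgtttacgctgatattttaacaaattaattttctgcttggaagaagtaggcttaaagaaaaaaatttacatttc
mRpS23: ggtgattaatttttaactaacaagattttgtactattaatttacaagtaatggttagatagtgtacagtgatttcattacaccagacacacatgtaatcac
mRpS2: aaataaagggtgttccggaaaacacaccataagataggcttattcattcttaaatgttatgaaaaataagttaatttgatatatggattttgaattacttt
mRpL20: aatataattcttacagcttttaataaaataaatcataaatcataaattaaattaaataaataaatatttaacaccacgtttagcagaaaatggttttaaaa
mRpL24: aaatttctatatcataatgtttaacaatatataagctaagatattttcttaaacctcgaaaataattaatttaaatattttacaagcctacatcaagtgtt
The other pair held a match, given in capitals. At mRpL39 (chr3L:14999785-14999885, minus strand) the capitals mark a word of the motif called NRG here, and at mRpL4 (chr2L:16329204-16329304, minus strand) they mark a TATA word.
mRpL39: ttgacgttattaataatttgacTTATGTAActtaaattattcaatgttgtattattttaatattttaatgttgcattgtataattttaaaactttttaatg
mRpL4: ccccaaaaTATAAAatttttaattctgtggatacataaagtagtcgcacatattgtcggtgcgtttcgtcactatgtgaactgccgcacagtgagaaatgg
All 7 stretches lie before the start of the member's transcript.

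Binding was called at a gene if any of its transcription start sites (TSSs) had a summit 500 bp away or less. In the reproducible set, made from both replicates and holding 4439 regions, 20 of the 73 genes (27.4%) were bound, against 2460 of all coding genes (17.6%). The bound large subunit genes were mRpL4, mRpL11, mRpL18, mRpL20, mRpL21, mRpL23, mRpL24, mRpL32, mRpL34, mRpL39 and mRpL41. The bound small subunit genes were mRpS2, mRpS6, mRpS7, mRpS10, mRpS16, mRpS18B, mRpS21, mRpS23 and mRpS24. These are shares of genes beside the shares of all coding genes; no test was made of the list.

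The other 3 sets gave the same order of the shares. In the larger set over both replicates 22 genes (30.1%) were bound, against 19.7% of coding genes. In the set of replicate 1 there were 18 (24.7%, against 15.8%), and in that of replicate 2 there were 14 (19.2%, against 13.8%). All 4 sets held 12 of the genes (16.4%, against 11.2% of coding genes), and any of the 4 held 23 (31.5%, against 21.8%). The 12 present in both replicate sets were also the 12 present in all 4, namely mRpL4, mRpL20, mRpL23, mRpL24, mRpL32, mRpL39, mRpL41, mRpS2, mRpS6, mRpS7, mRpS10 and mRpS23.

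By subunit, 11 of 47 large subunit genes (23.4%) and 9 of 26 small subunit genes (34.6%) were bound in the reproducible set. The gap was not kept in the set of replicate 2, where the shares were 19.1% and 19.2%. Sorted by descent, from general knowledge of ribosomal protein families, 17 of the 45 genes of bacterial families were bound (37.8%) and 3 of the 28 mitochondria-specific genes (10.7%), namely mRpL39, mRpL41 and mRpS23. In the larger set the shares were 35.6% and 21.4%, in replicate 1 28.9% and 17.9%, and in replicate 2 24.4% and 10.7%. The order thus held in all 4 sets while the size of the gap did not. The mitochondria-specific share was below that of all coding genes in the reproducible set (17.6%) and replicate 2 (13.8%). It was above that share in the larger set (19.7%) and replicate 1 (15.8%). By position, 0 of the 11 genes on chromosome X were bound in any of the 4 sets. Of all X-linked coding genes 16.9% were bound in the reproducible set, 19.1% in the larger set, 14.2% in replicate 1 and 12.7% in replicate 2. Beside such shares a count of 0 among 11 genes says little. On the other arms 6 of 12 members were bound on 2L (16.3% of coding genes there), 4 of 12 on 2R (17.7%), 5 of 17 on 3L (19.2%) and 5 of 21 on 3R (18.2%). The count on 2R was 1 in replicate 1 (8.33%, beside 15.0% of coding genes there) and 2 in replicate 2 (16.7%, beside 12.9%). On 3R it was 6 in replicate 1 (28.6%, beside 16.9%) and 3 in replicate 2 (14.3%, beside 14.3%). On 2L and 3L the share of members was the higher in both replicates.

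The strongest signals at these genes ranked among the strongest anywhere in the set. Height is the authors' score at the summit, used here to order regions within one set, since no scale between lists is stated. mRpL41, a large subunit protein with no bacterial counterpart, had a height of 1753 in the reproducible set and was 5th of 4439 regions, with 878 in replicate 1 and 873 in replicate 2. mRpS10, which in bacteria sits in the head of the small subunit, had 1662 (rank 8), with 808 and 855. mRpS23, a mitochondria-specific small subunit protein, had 1601 (rank 10), with 885 and 721. mRpL23, whose bacterial relative lines the rim of the exit tunnel, had 1219 (rank 21), with 599 and 623. These 4 stood clear of the other 16, whose heights ran from 72.0 to 611, and they stood clear in each replicate as well.

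A second group of 3 followed. mRpS2, which in bacteria bridges the head and body of the small subunit, had a height of 611 in the reproducible set (rank 122), with 355 in replicate 1 and 253 in replicate 2. mRpL20, an RNA-binding large subunit protein needed in bacteria for assembly, had 560 (rank 144), with 304 and 256. mRpL24, an early binder of the bacterial large subunit RNA, had 559 (rank 145), with 336 and 223. Their order differed between the replicates, so they are not separated from each other.

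The rest of the 12 highest ran from 245 down to 113, beside a median height of 113 over all 4439 regions. mRpL32, whose relatives in yeast and mouse are matured by a mitochondrial protease, had 245 (rank 727), with 124 and 120 in the replicates. mRpS6, of the platform of the small subunit in bacteria, had 229 (rank 805), with 109 and 102. mRpL4, whose bacterial relative reaches into the exit tunnel, had 151 (rank 1513), with 71.4 and 81.0. The order of these 3 was the same in both replicates. mRpL39, a mitochondria-specific large subunit protein, had 144 (rank 1615), with 72.7 and 86.0. mRpS24 had 113 (rank 2219), with 74.7 in replicate 1 and a region in the ranked list of replicate 2 that did not enter its set. The remaining 8 bound genes had heights from 72.0 at mRpS16 to 112 at mRpL11.

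**Figure D1:**
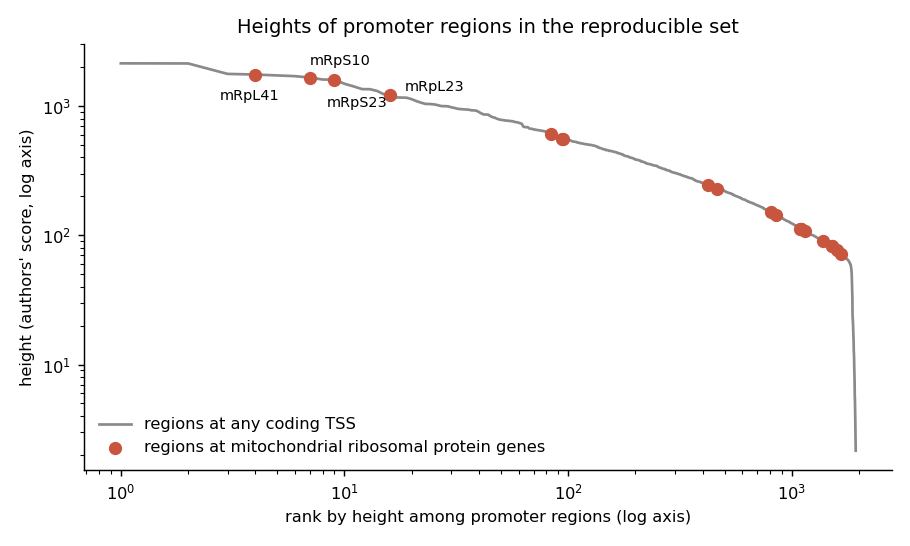
Height (authors' score, log axis) against rank by height (log axis) for the 1930 regions of the reproducible set within 500 bp of a coding TSS (line); points are the 20 regions at mitochondrial ribosomal protein genes. The 4 highest points lie at 1219 to 1753 and the other 16 run from 611 down to 72.0.

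Over all 20 regions the median height was 148, beside 128 over the 1930 regions within 500 bp of any coding TSS. Of the 20, 4 (20%) were among the 100 highest regions of the whole set, as were 68 of the 1930 (3.52%). When the 1930 were ordered by height and cut into 3 parts, 9 of the 20 fell in the highest part, 6 in the middle and 5 in the lowest. The global IDR is the expected share of irreproducible regions among those that score at least as well as the region. It stood at its smallest possible value of 1e-05 for 9 of the 20 (45%) and for 26.9% of the 1930. A q-like value above 0.05 in the authors' file was found for 1 of the 20, mRpS16, at 0.0547, beside 293 of the 1930.

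Across the 43 members with a region in both replicates' ranked lists, bound or not, the log2 heights of the highest region had a Pearson r of 0.935 and a Spearman rho of 0.833, a description over genes that share both libraries. For the 20 bound genes r was 0.965 and rho 0.902, and for the 23 others r was 0.449, but the IDR that chose the bound ones is itself a measure of rank agreement between these replicates, so this split is fixed in large part by the choice. At the 20 the summits of the replicates lay a median of 18.0 bp apart, at most 67.0 bp, and 15 of 20 pairs lay within 50 bp. Over the 43 the median distance was 30 bp.

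**Figure D2:**
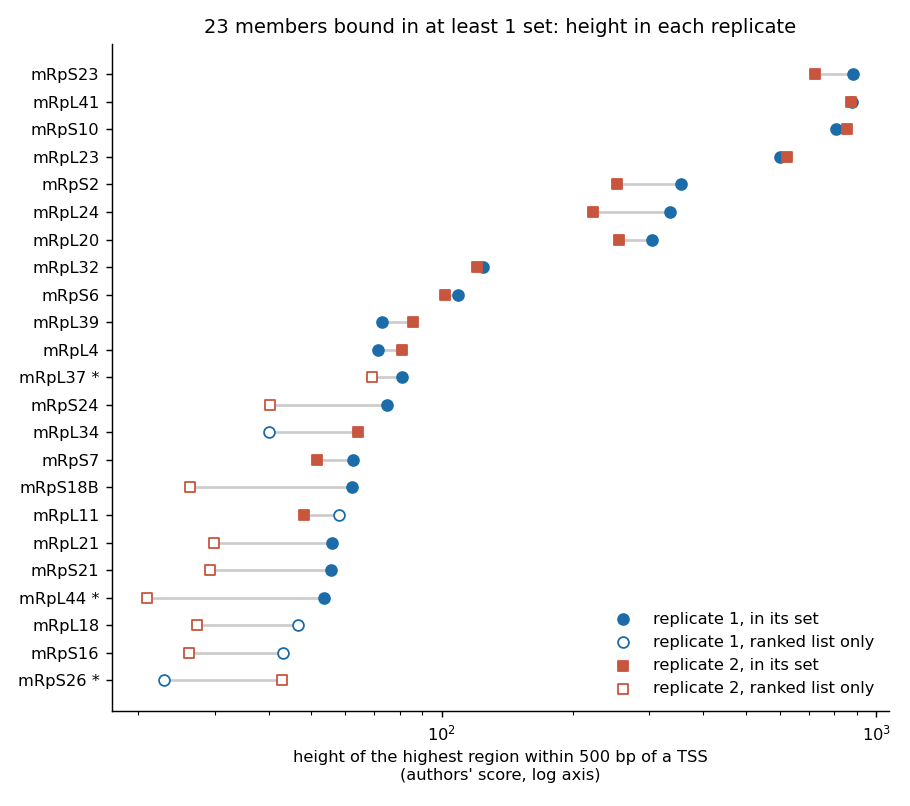
Height (authors' score, log axis) of the highest region within 500 bp of a TSS in replicate 1 (circles) and replicate 2 (squares) for the 23 members bound in at least 1 set; filled marks are in that replicate's set, open marks in its ranked list only, and an asterisk marks members absent from the reproducible set. The 12 members filled in both lie from 51.5 to 885, and mRpL18, mRpS16 and mRpS26 are open in both.

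Membership in 1 replicate set but not the other was seen at 8 genes (11.0%, against 6.92% of coding genes). In replicate 1 alone were mRpL21 at 55.9, mRpL37 at 80.8, mRpL44 at 53.6, mRpS18B at 62.0, mRpS21 at 55.7 and mRpS24 at 74.7. In replicate 2 alone were mRpL11 at 48.3 and mRpL34 at 64.1. Each of the 8 had a region in the ranked list of the other replicate that did not enter its set. At mRpL37, a mitochondria-specific protein, height alone did not set the call. Its candidate of height 145 had a global IDR of 0.781 in the ranked list behind the reproducible set and was left out, while mRpL39 at 144 was kept, and in the larger set the same region passed with an IDR of 0.00151. mRpL18 and mRpS16 were in the reproducible and larger sets and in neither replicate set. mRpS26 was in the larger set alone, at 60.6.

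Every bound member had a coding neighbour transcribed away from it. A head-to-head partner was defined as a coding gene on the other strand whose TSS lay at most 1000 bp upstream. Of the 73 members 58 had one (79.5%), against 5052 of all coding genes (36.2%). All 20 members bound in the reproducible set had one, with a median of 291 bp between the start sites, beside 63.7% of the 2460 bound coding genes. Of the 53 members not bound there, 38 had one (71.7%).

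Set against genes of the same arrangement, the share of members bound was close to the background. With a partner, 20 of 58 members were bound (34.5%), beside 31.0% of such coding genes. In the larger set the shares were 37.9% and 34.2%, in replicate 1 31.0% and 27.4%, and in replicate 2 24.1% and 25.1%, so the sign of this small gap was not the same in both replicates. Without a partner, 0 of 15 members were bound in any of the 4 sets. Of such coding genes 10% were bound in the reproducible set, 11.5% in the larger set, 9.27% in replicate 1 and 7.44% in replicate 2. With shares this small in the background, a count of 0 among 15 genes says little. Those 15 were mRpL9, mRpL10, mRpL12, mRpL13, mRpL14, mRpL19, mRpL36, mRpL40, mRpL45, mRpL49, mRpS5, mRpS9, mRpS33, mRpS34 and mRpS35. Bacterial-family and mitochondria-specific members had a partner about equally often, at 80% and 78.6%. With a partner, 17 of 36 and 3 of 22 were bound in the reproducible set, and 16 and 6 in the larger set. In replicate 1 the counts were 13 and 5, and in replicate 2 they were 11 and 3. The part of the arrangement in these counts was not tested. On chromosome X 9 of the 11 members had a partner and 0 of those 9 were bound. The share bound among X-linked coding genes with a partner was not taken, and 9 genes are few.

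**Figure D3:**
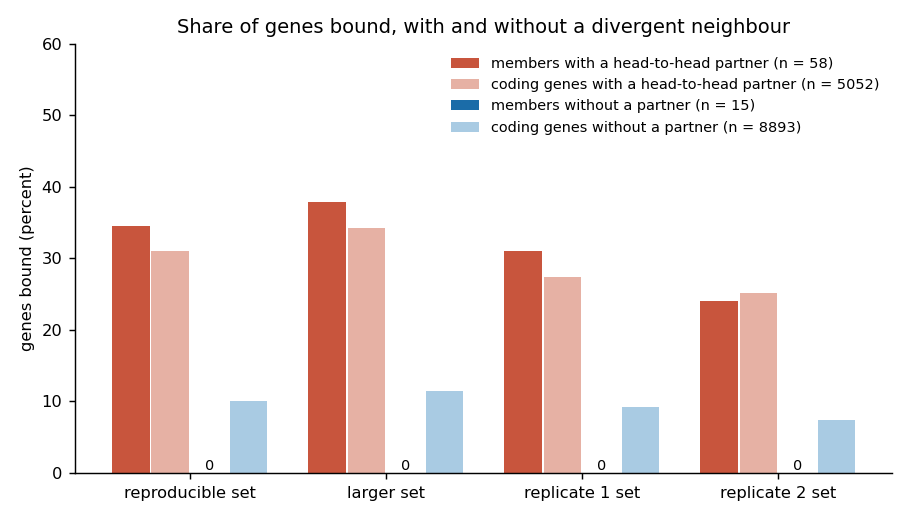
Percent of genes bound in each of the 4 sets, for members and all coding genes with a head-to-head partner within 1000 bp and for those without. With a partner, members stand at 24.1% to 37.9% and coding genes at 25.1% to 34.2%. Without one, the 15 members stand at 0 in every set and coding genes at 7.44% to 11.5%.

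The summits sat between the paired start sites at 17 of the 20 bound members. No such share was taken for the 1568 bound coding genes with a partner, so 17 of 20 has no background here. Measured from the member's TSS the median position was −135 bp, from −385 at mRpS23 to +56 at mRpL23, and 19 of 20 lay upstream. Over the 1930 regions, each measured from its nearest coding TSS, the median was −105 bp and 81.0% lay upstream. Measured that way the 20 had a median of −107.5 bp, and 17 of them (85%) lay upstream. At 18 of 20 another coding TSS lay within 500 bp of the summit (90.0%, beside 37.8% of the 1930). The 20 were found through a gene and the 1930 were counted once each. Regions near several coding TSSs are thereby favoured among the 20, so these shares are not alike in kind. At 12 of 20 the neighbour's TSS was the nearer. If each summit is given only to the gene with the nearest TSS, 8 of 73 members stay bound (11.0%), beside 13.1% of coding genes, so that under this rule the share of members is the lower. These were mRpL4, mRpL23, mRpL32, mRpL34, mRpL41, mRpS6, mRpS7 and mRpS18B. A summit between start sites cannot be assigned to either gene from these files.

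The neighbours were of many kinds, and several stood nearer to the summit than the member. The mRpS10 summit was 134 bp upstream of mRpS10 and 123 bp upstream of Art3, an arginine methyltransferase. That of mRpS23 was 385 bp from its own start and 107 bp upstream of CenG1A, which encodes an Arf GTPase-activating protein. Those of mRpS2, mRpL20 and mRpL24 were 69, 122 and 105 bp upstream of Mon1, Icmt and betaggt-I, genes for a factor of endosome maturation, a methyltransferase of prenylated proteins and a geranylgeranyl transferase subunit. mRpS24 shared its region with Apc2, of the Wnt destruction complex, 123 bp upstream of that gene's start.

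Some neighbours have roles in mitochondria or the cell cycle. mRpL32 lay opposite qless, which makes the side chain of coenzyme Q, with the summit 108 bp before mRpL32 and 156 bp before qless. mRpL11 lay opposite HtrA2, a mitochondrial protease, and mRpL18 opposite Taz, which remodels cardiolipin, with summits 60 and 89 bp inside those neighbours. mRpS7 lay opposite Cdk1, the mitotic kinase, with the summit 135 bp upstream of mRpS7 and 265 bp upstream of Cdk1. mRpL39 lay opposite Prosbeta2, a proteasome subunit 285 bp away. There the summit was nearer to Prosbeta2 in the reproducible set and in replicate 1 (119 bp against 166 bp) and nearer to mRpL39 in replicate 2 (136 bp against 149 bp), and at mRpL32 the nearer gene also differed between the replicates.

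mRpL41 and mRpL4 were the 2 bound members with no other coding TSS within 500 bp of the summit. Their partners, CG8079 and CG4440, started 762 and 793 bp from the member and were not bound. The summit lay 135 bp upstream of mRpL41 in the reproducible set, 128 bp in replicate 1 and 136 bp in replicate 2, so the highest member region stayed within 8 bp across these sets.

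**Figure D4:**
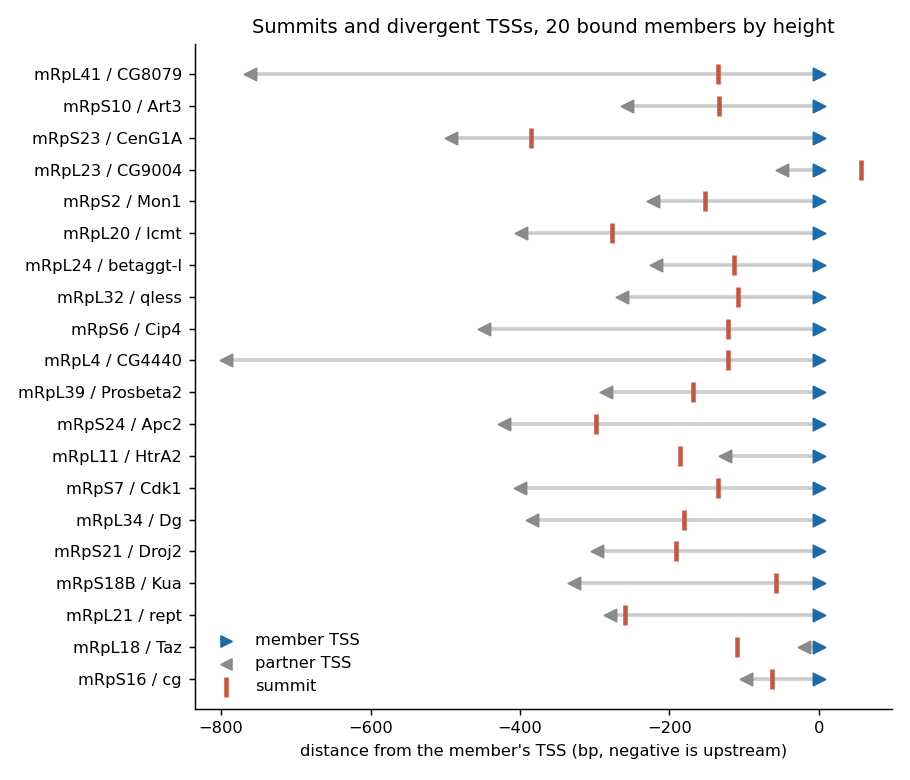
Position of the summit (bar) and of the partner's TSS (left-pointing mark) relative to the member's TSS at 0 (right-pointing mark), in bp with negative values upstream, for the 20 members bound in the reproducible set, highest region on top. At 17 the bar lies between both start sites, and at mRpL23, mRpL11 and mRpL18 it lies outside.

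Known promoter motifs were looked for on both strands in the 101 bases at each summit. The E2F words were TTGGCGC, with the variants TTCCCGC as well as TTGCCGC and also TTCGCGC, and 0 of the 20 member regions held one, beside 5.85% of the 1930 promoter regions. The DNA replication-related element (DRE) TATCGATA, bound by Dref, was in 0 (3.52%), its core ATCGAT, which every DRE contains, in 0 (7.77%), the M1BP word GGTCACAC in 0 (2.02%) and the E-box CACGTG in 0 (1.09%). An NRG word (TTACGTAA or the variants TTACATAA and also TTATGTAA or else TTATATAA) was in 1, mRpL39, shown in capitals above, beside 2.85%. The word TATAAA, which an NRG word may overlap, was in 4 (20%), namely mRpL23, mRpL4, mRpS24 and mRpS7, beside 22.5%. With shares this small in the background, counts of 0 among 20 regions say little, and they show only that these letters are not in these windows.

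Over whole regions, which had a median width of 344 bp, counts were 2 for E2F (10%, beside 17.2% of promoter regions), 3 for DRE (15.0%, beside 9.79%), 2 for M1BP (10%, beside 7.15%) and 2 for the E-box (10%, beside 3.99%). The E2F matches were at mRpS21, where TTGCCGC lay 95 bp from the summit, and at mRpL18, 61 bp from it. The DRE matches were at mRpL4, 145 bp away, at mRpS18B, 57 bp away, and at mRpL39, which held 2 of them 141 and 109 bp to either side. In promoters of all members, from 250 bp before to 50 bp after the TSS, DRE was present in 15 of 73 (20.5%), beside 9.37% of coding genes. It was in 6 of the 20 bound ones (30%), beside 14.7% of bound coding genes, and in 9 of the 50 members in no set (18%). The DRE core was in 8 of the 20 (40%) and in 19 of the 50 (38%). E2F words were in 10 of the 73 (13.7%), beside 14.1%, and in 2 of the 20 (10%), beside 16.3% of bound coding genes.

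The summits lay in DNA poor in G and C. The median GC content of the 101 bases was 26.7% over the 20 member regions, with quartiles of 22.5% and 31.2%, beside 32.7% over the 1930, with quartiles of 26.7% and 42.6%. It was lowest, at 15.8%, for mRpL20 and mRpL39 and highest, at 57.4%, for mRpS16, the region with the lowest height. The 100 highest of the 1930 also had a median of 26.7%. Promoters of all 73 members, 250 bp before to 50 bp after the TSS, had a median of 34.6%, beside 37.9% over all coding genes. The part of base composition in which genes were bound was not tested.

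**Figure D5:**
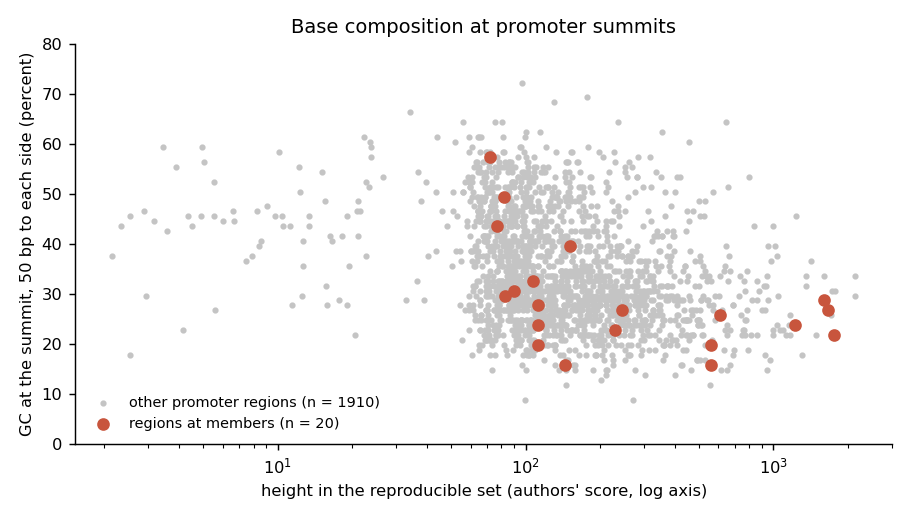
GC content (percent) of the 101 bases centred on each summit against height (authors' score, log axis) for the 20 member regions and the 1910 other promoter regions of the reproducible set. Of the member regions, the 9 highest lie between 15.8% and 28.7%, and mRpS16, at 57.4%, is the lowest in height.

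At most unbound members a weak candidate was listed, and most unbound coding genes had a candidate too. Some region of the full ranked list behind the reproducible set had a summit within 500 bp of 59 of the 73 members (80.8%), beside 74.5% of coding genes. The shares were 78.1% and 72.3% for the list behind the larger set, 74.0% and 65.4% for that of replicate 1, and 68.5% and 56.9% for that of replicate 2. Of the 50 members in none of the 4 sets, 45 had a candidate in at least 1 list. In the list behind the reproducible set 36 of the 50 had one (72.0%), beside 68.0% of coding genes in none of the sets. These shares were 68.0% and 64.8% for the list behind the larger set. They were 62.0% and 55.9% for that of replicate 1, and 54.0% and 46.3% for that of replicate 2.

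The 5 with the lowest global IDR in the 2 lists over both replicates were mRpL47, mRpS22, mRpS18A, mRpL53 and mRpS29. mRpL47 had a candidate of height 81.0, 56 bp upstream, with an IDR of 0.00294 in the list behind the reproducible set and 0.000965 in the other, which is under the authors' threshold of 0.01. It was 1 of the 103 regions, among 4542 at or under that threshold in the first of these lists, that the thresholded set does not hold, and the step that removed them is not given in the sources used here. mRpS22 had a candidate of height 92.5, taller than 5 of the bound members, with an IDR of 0.0142 in the list behind the reproducible set and 0.690 in that behind the larger set. mRpS18A, which in mammals is placed in the large subunit, had 58.1, with IDRs of 0.640 and 0.0177 in the same lists. mRpL53 had 49.5, with 0.0644 and 0.775, and mRpS29 had 38.0, with 0.0975 and 0.756. For each of these 4 the lists thus differed widely.

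Of the other 40 with a candidate, 37 were in those lists, with lowest IDRs from 0.109 to 0.883, and the 31 in the list behind the reproducible set had heights from 6.09 to 47.4. They were mRpL1, mRpL2, mRpL3, mRpL9, mRpL10, mRpL12 to mRpL17, mRpL19, mRpL22, mRpL27, mRpL28, mRpL33, mRpL35, mRpL36, mRpL38, mRpL40, mRpL42, mRpL45, mRpL46, mRpL48 to mRpL52, mRpL54, mRpS5, mRpS9, mRpS11, mRpS14, mRpS17, mRpS18C, mRpS25, mRpS28, mRpS30, mRpS31 and mRpS33. No list held a candidate at mRpL30, mRpL43, mRpL55, mRpS34 or mRpS35. Of mitochondrial ribosomal proteins under other symbols, which the rule misses, only tko (mRpS12) and bonsai (mRpS15) were looked up. Neither was bound in any set.

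The lists of genes that work beside the mitochondrial ribosome are short, and no difference between them or from the 17.6% of all coding genes in the reproducible set was tested. Of 21 genes for upkeep of mitochondrial DNA and RNA 6 were bound (28.6%; 23.8% in replicate 1 and 28.6% in replicate 2), with the highest regions at PNPase (1604), an RNA-degrading enzyme, and SLIRP2 (751), an RNA-binding protein. Of 15 mitochondrial aminoacyl-tRNA synthetases 3 were bound (20%; 20% and 13.3%), led by LeuRS-m (1234) and ProRS-m (212). Of 13 translation factors and related enzymes 2 were bound (15.4%; 7.69% in each replicate), GatA (148) and mIF2 (69.0). Of 15 import genes 4 were bound (26.7%; 20% and 13.3%, the last beside a background of 13.8%), led by the chaperone gene Hsc70-5 (221) and Tom7 (122), a pore subunit.

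The products of mitochondrial translation join nuclear-encoded subunits of oxidative phosphorylation. Of 91 genes listed for these, 16 were bound (17.6%, beside 17.6% of all coding genes, with 14.3% and 16.5% in the replicates), led by ND-ASHI (389) and ND-MWFE (260). The 91 included genes whose symbols add an L to that of a subunit, such as COX4L, ND-24L and SdhAL. None of these was bound in any set, so the share depends on how the list was drawn up. Of the 93 cytosolic ribosomal protein genes 54 were bound (58.1%; 58.1% and 50.5% in the replicates), led by RpL7 (455) and RpS27 (385). The median height at bound genes was 148 for the mitochondrial ribosomal proteins and 149 for the cytosolic ones, whose highest region was below that of the 7 highest mitochondrial members. Some genes of these lists had a head-to-head partner, such as RpL7 (Ripalpha) and RpS27 (Nup37), and others had none, such as RpL11 and RpL24. The shares bound in these lists were not split by partner.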

How the data were processed

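ChIP-seq of E2f1-eGFP from whole embryos was analysed from the deposited region lists, 2 replicates of 1 group, each with a thresholded set and a ranked list, and 2 of each over both. The set and list called reproducible are those whose inputs are both replicates; no file names the inputs of the lists of single replicates. Peak height is a signal score in the authors' deposited files with no stated scaling. The authors deposited a −log10 q-like value for each region, and in the ranked lists the global IDR as a −log10 score with a ceiling of 5. Aligner and peak caller: not given in the sources used here. Depth is unknown.

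Summits, 1-based, were joined to TSSs of Ensembl BDGP6.54, release 115, within 500 bp. Sequence came from the RefSeq dm6 assembly. Summit assignment and motif search were tested on simulated data. Python 3.11.15, numpy 2.4.6, pandas 2.3.3 and matplotlib 3.10.9 were used. Members, lists, motifs and alternatives were chosen with earlier results of these data known. Related genes were matched by exact symbol. Named genes were the 12 highest members, those in 1 replicate set only, the first 5 unbound by IDR, and the 2 highest of each related list; other members are named with counts or ranges, and those singled out beyond this were chosen after their values were seen. Counts were compared with those over all coding genes or promoter regions, without a test. Alternatives were other sets, distances, an IDR of 0.001, the nearest TSS, whole-region overlap and motif windows.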

Additional observations from a re-analysis of the deposited data

How the results depend on the processing

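The count of 20 bound members (beside 17.6% of coding genes) became 22 in the larger set (19.7%) and 14 at an IDR of 0.001 (12.1%). It was 16 within 200 bp (12.4%), 21 within 1000 bp (20.6%) and 21 by whole-region overlap (18.8%). Without replicate 1 it was 14 (13.8%), and without replicate 2 it was 18 (15.8%). The large subunit count of 11 ran from 9 to 10 without 1 replicate and the small subunit count of 9 from 5 to 8. Only the nearest-TSS rule moved all 3 counts beyond 1.5 times, to 8, 5 and 3, because it gives each summit to 1 gene; 11.0% of members were then bound, beside 13.1% of coding genes, so the order of the shares turned round. Among members without a head-to-head partner, an alternative chosen after seeing the data, the count was 0 of 15, beside 10% of such coding genes. The median position of −135 bp became −161 in the larger set, −128 within 200 bp and −122 by the nearest TSS, and −142.5 to −141.5 without 1 replicate; it stayed upstream in each of these. Near the summit, the counts of 0 for E2F and DRE rose to 2 each within 100 bp, and DRE rose to 1 with the summits of replicate 1 alone. No paired analysis was possible because there is only 1 group. Without read counts, depth gives no limit for a member listed in no set, and absence from a set can come from the authors' threshold or, as at mRpL47, from a step that is not stated. With 20 regions, motif shares are coarse.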
